A study of Mus musculus with 24 samples.

Results

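The effect of CLK8 on mouse hepatic stellate cells kept under TGFb was followed by setting 3 RNA-seq libraries of CLK8+TGFb against 3 libraries of TGFb alone, 6 of the 24 libraries in the series, across all 11297 genes that were expressed well enough to test. The libraries were chosen by their treatment labels and not by any measured value. EMS404 is a stellate cell line derived from the liver of C57Bl6 mice, immortalized with SV40 and expressing human TLR4, and every group described here carries those same features. It is 1 cultured line, and the design text calls the 3 samples of a group biological, so the spread is that among cultures of 1 line and not among animals. CLK8 is described in the series as a disruptor of the CLOCK:BMAL1 dimer. The CLK8+TGFb cells had CLK8 for 24 h and then CLK8 with TGFb at 10 ng/mL for 24 h, and the TGFb cells had vehicle (DMSO by library name) in place of CLK8. Cells given CLK8 without TGFb, vehicle cells, which the labels call untreated, and cells given SR9011, a REV-ERB agonist, with TGFb served as further groups of 3. No source used here states the CLK8 dose. Whether cells that never had TGFb spent a second 24 h in culture is unclear too, so the effect of TGFb and of that time cannot be told apart.

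CLOCK and BMAL1 (gene Arntl) form the activating arm of the circadian clock. As a dimer they bind E-box sequences and switch on the Per, Cry, Nr1d1 and output genes, and the PER and CRY proteins then shut the dimer down while REV-ERB proteins repress Arntl. Hepatic stellate cells store vitamin A in the healthy liver and turn into contractile, collagen-secreting myofibroblasts when TGFb acts on them, through receptors that phosphorylate SMAD proteins.

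Levels are given as FPKM (fragments scaled to transcript length and library size), and a log2 difference is the mean of log2(FPKM + 1) in the first group minus that in the second, a scale that understates the change of low genes. A gene was called, and is said to have risen or fallen, when its adjusted p from limma over all 11297 genes was below 0.05. Read totals are unknown. FPKM summed to between 503920 and 528289 per library over the 6 libraries, 10787 to 10875 genes reached 1 FPKM in each, and the 10 highest genes took 5.19% to 5.67% of the sum. Of 10 stellate cell markers, 9 were in the table and 5 (Pdgfrb, Hand2, Lhx2, Cygb and Vim) reached at least 1 FPKM in all 6 libraries, while Reln was listed at 0 and Des, Hgf and Ngfr stayed near 0. Hepatocyte markers (3 of 5 in the table) summed to at most 0.1 FPKM in any of the 6 libraries, liver endothelial markers to at most 0.22 FPKM and leukocyte markers (3 of 5 in the table) to at most 1.58 FPKM. Portal fibroblast markers summed to 548.6 to 569.7 FPKM with CLK8+TGFb and 523.3 to 589.9 FPKM with TGFb, nearly all of it Fbln2, which was not called, while Thy1 and Entpd2 stayed below 0.1 FPKM and Eln fell. Of 194 genes followed individually, 34 overlap another measured gene, and no source used here says whether the counting used strand, so reads of such pairs may be shared. Overlaps are marked where a gene is described, except for Cyp51, Dbp, Fkbp10, Hexa, Npc1, Pcolce, Ppp1r15a, Prg4, Vcl and Hspd1, which are named here.

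With TGFb present, CLK8 changed many genes by small amounts. It raised 3130 genes (27.7% of those tested) and lowered 1508 (13.3%), 4638 in all (41.1%), and the median size of a called change was 0.27 on the log2 scale. On the log2(FPKM + 1) scale 43 genes rose and 36 fell by at least 2-fold, and both counts were larger with a pseudocount of 0.1. Low genes can be missed on this scale, as was Hlf, with a ratio of means of 2.92 but a log2 difference of 0.89. The 3 libraries of one group lay wholly above the 3 of the other for 97% of the called genes and for 54.5% of all genes tested. The direction of the many small changes depended on the scaling: with quantile normalization 2241 genes rose and 2277 fell, and with FPKM rescaled to TPM 3563 rose and 1122 fell. The median log2 difference over all genes was 0.05 as deposited, and both rescalings moved it by less than 0.1.

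**Figure D1:**
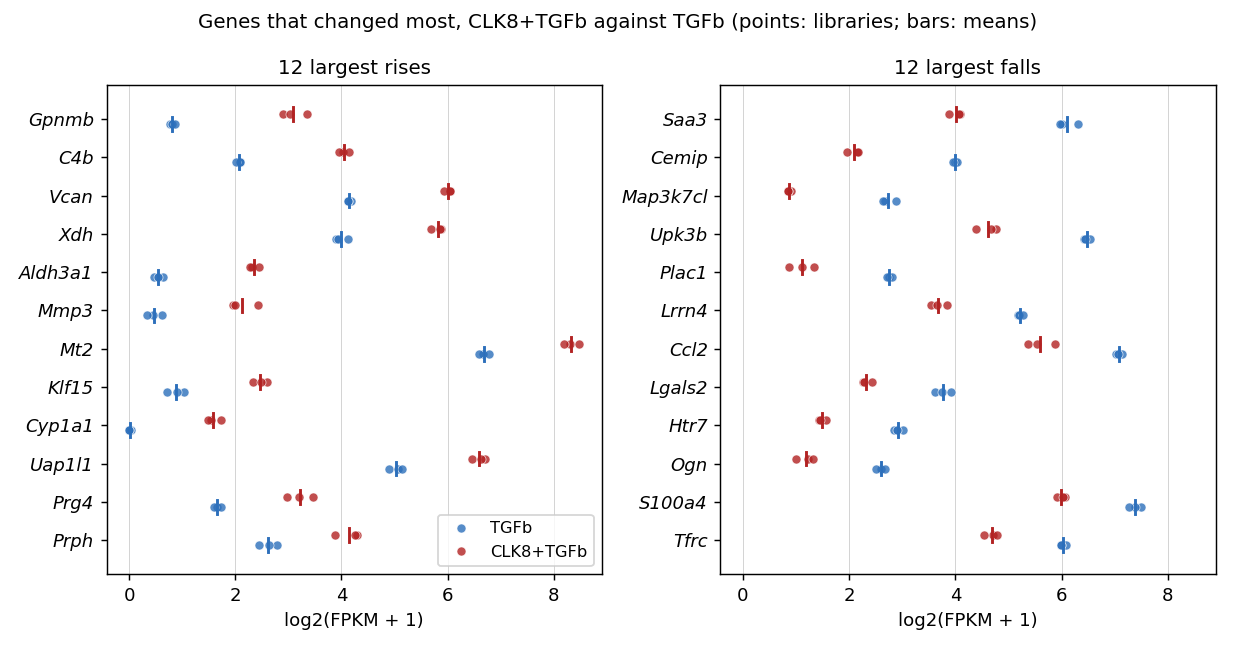
Levels of the 12 genes that rose most (left) and the 12 that fell most (right) in CLK8+TGFb libraries against TGFb libraries, on a log2(FPKM + 1) axis. Each point is 1 library and each bar a group mean of 3, from Gpnmb and Saa3 at the top to Prph and Tfrc at the bottom. Only genes whose 2 groups did not overlap could be picked, so that separation is no result.

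The 12 largest rises and the 12 largest falls were picked among called genes whose 2 groups did not overlap, so the choice fixed that separation. The rises were spread over lysosomal, matrix, complement, metallothionein and xenobiotic-metabolism genes. Gpnmb (chr6:49036546-49070929, mm10), a transmembrane glycoprotein that cells make when lysosomes are under load, stood at 9.26, 6.43 and 7.2 FPKM in the CLK8+TGFb libraries and 0.70, 0.76 and 0.81 FPKM in the TGFb libraries. That is a ratio of means of 10.1 (log2 difference 2.28, SE 0.11, adjusted p = 5.5e-13). Vcan (chr13:89655312-89742509), which encodes the large matrix proteoglycan versican, was at 64.6, 65.2 and 60.3 FPKM with CLK8 and 17.2, 16.4 and 16.4 FPKM without it, a ratio of 3.8 (log2 difference 1.86, SE 0.07, adjusted p = 1.1e-14). Both groups were tight for Vcan and far apart. C4b, the complement component, was at 15.2, 14.5 and 16.7 FPKM in CLK8+TGFb and 3.27, 3.28 and 3.03 FPKM in TGFb (log2 difference 1.97, SE 0.10, adjusted p = 2.6e-12). Xdh, the xanthine dehydrogenase of purine breakdown, was at 57.8, 50.6 and 57.1 FPKM against 14, 16.3 and 14.4 FPKM (log2 difference 1.82, SE 0.07, adjusted p = 3.9e-14). For both of these genes every library with CLK8 was more than 3 times as high as any without it. Mt2, a metal-binding metallothionein, was at 317, 293 and 355 FPKM against 101, 109 and 95.9 FPKM (log2 difference 1.64, SE 0.13, adjusted p = 1.9e-09). Klf15, a transcription factor with a daily rhythm in many tissues, was at 5.02, 4.03 and 4.56 FPKM against 0.63, 1.04 and 0.87 FPKM (log2 difference 1.59, SE 0.08, adjusted p = 5.3e-13). The other 6 large rises were Aldh3a1, Mmp3, Cyp1a1, Uap1l1, Prg4 and Prph, with log2 differences from 1.52 for Prph to 1.79 for Aldh3a1.

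Among the largest falls were an acute-phase protein, a chemokine, 2 mesothelial genes and a hyaluronan-degrading factor. Saa3 (chr7:46711998-46715700), serum amyloid A3, stood at 13.8, 15.9 and 15.8 FPKM in the CLK8+TGFb libraries against 63, 78.8 and 62.1 FPKM in the TGFb libraries, a mean 4.48 times higher without CLK8 (log2 difference -2.09, SE 0.25, adjusted p = 2.9e-06). Cemip, which is needed for hyaluronan breakdown, was at 3.43, 3.5 and 2.87 FPKM against 14.9, 15.4 and 14.5 FPKM (log2 difference -1.90, SE 0.13, adjusted p = 3.0e-10). All 3 CLK8+TGFb libraries were far below the lowest TGFb library for both genes. S100a4, a calcium-binding protein also known as fibroblast-specific protein, was at 65.7, 59.3 and 63.8 FPKM against 179, 166 and 152 FPKM (log2 difference -1.38, SE 0.08, adjusted p = 4.9e-12). Tfrc, the transferrin receptor through which cells take up iron, was at 25.1, 26.7 and 22.4 FPKM against 67.1, 62.2 and 62.5 FPKM (log2 difference -1.34, SE 0.12, adjusted p = 2.3e-08). For both genes the levels within a group were close. Map3k7cl, Plac1, Ccl2, Lgals2, Htr7, Ogn and the mesothelial genes Upk3b and Lrrn4 made up the rest, with log2 differences between -1.87 (Map3k7cl) and -1.41 (Ogn). Ogn overlaps Cenpp and Lgals2 overlaps Cdc42ep1. In bulk RNA a lower level can come from fewer cells that express the gene or from less RNA per cell, and these cannot be told apart.

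The clock genes, on which CLK8 is meant to act, moved by modest amounts and in both directions. The E-box to which CLOCK and BMAL1 bind, written CACGTG and identical on both strands, was looked for in 300 bases around the start of each gene (250 before it and 50 after), taken from RefSeq on GRCm38.p6 where a RefSeq start lay within 1000 bases of the annotated start of the gene. Of 11297 tested genes, 8256 had such a window, and 880 of the windows (10.7%) held the 6 letters. The clock genes with a match were Ciart, Cry1, Bhlhe41 and Tef. So few genes of each clock list had a window (5 of 8 repressors) that no share is compared. The promoters of 2 clock genes and, for the lysosomal genes described further on, that of Lamp1 are shown because the same 6 letters stand in all of them, 3 times in Ciart, once in Cry1 and 4 times in Lamp1. Each line gives the 250 bases before the start in the direction of the gene, with each CACGTG in capitals.
Ciart: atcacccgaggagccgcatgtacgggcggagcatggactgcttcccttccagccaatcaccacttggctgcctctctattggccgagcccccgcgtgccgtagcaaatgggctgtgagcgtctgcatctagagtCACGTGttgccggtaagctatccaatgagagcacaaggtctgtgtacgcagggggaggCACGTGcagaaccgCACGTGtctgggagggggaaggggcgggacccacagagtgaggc
Cry1: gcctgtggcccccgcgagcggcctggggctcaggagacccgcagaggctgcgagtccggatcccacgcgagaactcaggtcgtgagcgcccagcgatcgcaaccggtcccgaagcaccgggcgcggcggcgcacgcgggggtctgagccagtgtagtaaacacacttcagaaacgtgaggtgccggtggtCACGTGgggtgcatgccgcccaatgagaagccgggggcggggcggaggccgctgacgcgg
Lamp1: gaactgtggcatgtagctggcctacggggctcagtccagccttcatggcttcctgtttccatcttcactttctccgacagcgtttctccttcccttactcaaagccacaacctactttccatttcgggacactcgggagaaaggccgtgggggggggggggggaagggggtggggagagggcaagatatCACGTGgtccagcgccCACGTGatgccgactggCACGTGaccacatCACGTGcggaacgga
They lie at chr3:95882229-95882478 (minus strand), chr10:85185055-85185304 (minus strand) and chr8:13158911-13159160 (plus strand). The matches of Ciart begin 116, 58 and 44 bases before the start, that of Cry1 60 bases before it and those of Lamp1 61, 45, 28 and 15 bases before it. A match describes the sequence only and does not show that a factor was bound.

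Of the 3 activators tested, 2 rose slightly. Arntl, the gene of BMAL1, was at 12.5, 12.8 and 12.6 FPKM in CLK8+TGFb and 11.5, 11.3 and 10.8 FPKM in TGFb (log2 difference 0.16, SE 0.05, adjusted p = 0.015), and its call was lost with quantile normalization or without CLK8+TGFb replicate 2 or TGFb replicate 3. Arntl2, a paralogue of Arntl, was at 3.09, 3.14 and 2.87 FPKM against 2.22, 2.13 and 2.07 FPKM (log2 difference 0.36, SE 0.09, adjusted p = 0.0017). Clock itself was at 7.14, 6.82 and 6.53 FPKM against 7.36, 6.91 and 6.77 FPKM, with overlapping groups (log2 difference -0.03, SE 0.09, adjusted p = 0.81). Npas2, which can stand in for Clock, was too low to test.

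Among 8 repressors 4 fell and 2 rose. Ciart, a repressor of CLOCK:BMAL1 that is itself driven by E-boxes and carries the 3 shown above, made the largest move, at 5.31, 7.05 and 6.44 FPKM with CLK8 against 10.2, 12 and 9.52 FPKM without it (log2 difference -0.67, SE 0.14, adjusted p = 8.1e-04). Per2 was at 2.47, 2.79 and 2.34 FPKM against 3.33, 3.57 and 3.63 FPKM (log2 difference -0.35, SE 0.07, adjusted p = 1.7e-04). Ciart and Per2 were lower in every CLK8+TGFb library than in any TGFb library. Cry1, with the single E-box shown, was at 9.04, 8.59 and 9.23 FPKM against 10.9, 10 and 9.98 FPKM (log2 difference -0.18, SE 0.07, adjusted p = 0.04), and Cry2 had a log2 difference of -0.14 (adjusted p = 0.048). The calls of Cry1 and Cry2 were lost with TPM scaling and without any single one of the 6 libraries. The PER partner Per3 rose (log2 difference 0.29, SE 0.08, adjusted p = 0.0043), as did Bhlhe41, a repressor of the DEC family, from 0.91, 1.05 and 0.63 FPKM to 1.06, 1.69 and 1.74 FPKM (log2 difference 0.42, SE 0.10, adjusted p = 0.0017). Per3 overlaps Camta1. Per1 was at 7.12, 8.04 and 7.47 FPKM against 6.77, 7.38 and 6.68 FPKM (adjusted p = 0.17) and Bhlhe40, the other DEC repressor, at 36.6, 44.9 and 45.2 FPKM against 31.9, 38.7 and 32.6 FPKM (adjusted p = 0.23), and both had overlapping groups.

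In the REV-ERB and ROR list 3 of 5 tested genes rose and none fell. REV-ERB and ROR proteins set the level of Arntl, but 1 of the 3 rises was Nfil3, which is neither. Nr1d1, the gene of REV-ERB alpha, was at 4.04, 3.97 and 3.61 FPKM against 2.58, 2.66 and 2.91 FPKM (log2 difference 0.39, SE 0.08, adjusted p = 6.0e-04), with the reservation that it overlaps Thra on the genome. Nfil3, a repressor that competes with the DBP family, was at 32, 33.1 and 34.8 FPKM against 29, 29.1 and 29.2 FPKM (log2 difference 0.19, SE 0.06, adjusted p = 0.016). The call of Nfil3 was lost with quantile normalization and without CLK8+TGFb replicate 3. Nr1d2 had a log2 difference of 0.11 (adjusted p = 0.38) and Rora of 0.23 (adjusted p = 0.092). The 9 output genes, which clock proteins drive directly, did not move as a group. Hlf, a PAR leucine-zipper factor, rose from 0.88, 0.72 and 0.81 FPKM to 2.51, 2.32 and 2.2 FPKM (log2 difference 0.89, SE 0.11, adjusted p = 9.5e-07), and Tsc22d3, the glucocorticoid-induced leucine zipper, from 20.8, 19.4 and 18.7 FPKM to 28.4, 27.2 and 28 FPKM (log2 difference 0.49, SE 0.04, adjusted p = 1.3e-08). Tef, a PAR factor like Hlf, fell (log2 difference -0.21, SE 0.05, adjusted p = 8.7e-04) and so did Klf10, which TGFb induces, from 29.1, 31.4 and 29.4 FPKM to 19.5, 21.5 and 20 FPKM (log2 difference -0.54, SE 0.09, adjusted p = 5.9e-05). Dbp, the third PAR factor, was at 2.62, 2.96 and 2.56 FPKM against 2.33, 2.78 and 2.34 FPKM with overlapping groups (adjusted p = 0.47). Wee1, Nampt, Usp2 and Por were not called either, with log2 differences of at most 0.13. Of 11 clock kinases and ligases only Csnk1d (0.13) rose and only Csnk2a1 (-0.11) fell, and both calls were lost without some single library.

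**Figure D2:**
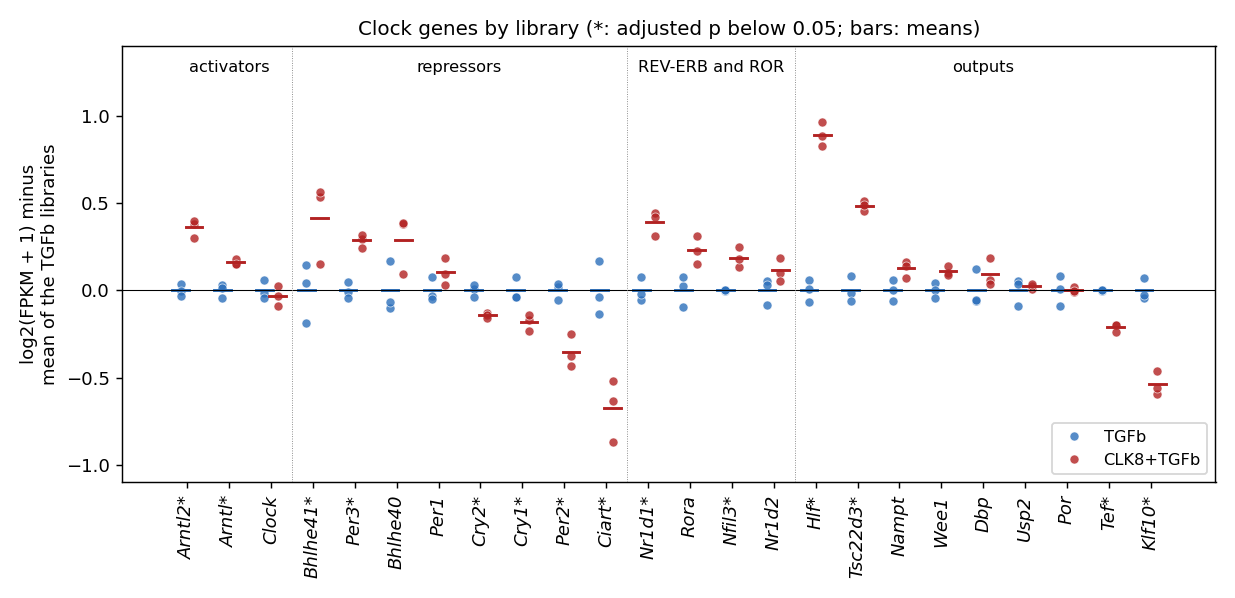
Each clock gene in the 6 libraries, as log2(FPKM + 1) minus the mean of the 3 TGFb libraries, in 4 sets (activators, repressors, REV-ERB and ROR, outputs). Points are libraries, bars are group means and an asterisk marks an adjusted p below 0.05; Hlf stands highest at 0.89 and Ciart lowest at -0.67.

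Lysosomal genes rose together. Of 26 tested members of the autophagy and lysosome list, 18 rose and 2 fell, with a median log2 difference of 0.45 against 0.05 over all genes. The members include membrane proteins, hydrolases and the autophagosome proteins that deliver cargo to them. Mcoln1, the calcium channel of the lysosomal membrane, was at 44.7, 42.1 and 42.9 FPKM in CLK8+TGFb against 21.9, 23.8 and 23.2 FPKM in TGFb (log2 difference 0.89, SE 0.05, adjusted p = 2.6e-12). Hexa, a subunit of the hexosaminidase that degrades gangliosides, was at 76.8, 68.7 and 72.2 FPKM against 40.7, 42.6 and 41.1 FPKM (log2 difference 0.79, SE 0.05, adjusted p = 4.0e-11). In both genes the libraries with CLK8 were all higher. Lamp1 and Lamp2, the main proteins of the lysosomal membrane, had log2 differences of 0.53 and 0.53, and the cathepsins Ctsl, Ctsd and Ctsb had 0.80, 0.52 and 0.48. The 2 members that fell were Wipi1 (-0.18) and Tfeb (-0.21), the latter a transcription factor of lysosomal genes. Shares of windows with a match were not tested. Of 19 list members with a window, 5 held the E-box letters (Lamp1, Ctsd, Ctsl, Mcoln1 and Atg5), against 10.7% of all windows. In Ctsd and Mcoln1 they stood within the longer palindrome TCACGTGA, the core of the CLEAR element that TFEB-type factors bind, which 179 of the 8256 windows (2.17%) held. TGFb against vehicle, which shares the TGFb libraries, had lowered 20 of the 26 list members and raised 2. In the LXR and cholesterol efflux list 5 of 9 genes rose and none fell. Npc1 and Npc2, which move cholesterol out of the lysosome, were among them with log2 differences of 0.42 and 0.50. Pltp, the phospholipid transfer protein, rose most in that list, from 17.6, 20 and 19.9 FPKM to 35.6, 31.7 and 35.2 FPKM (log2 difference 0.80, SE 0.08, adjusted p = 1.7e-08), though it overlaps Ctsa.

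Genes of xenobiotic metabolism formed the list with the largest median. The aryl hydrocarbon receptor AhR is a ligand-activated transcription factor, and 6 of its 7 tested partner and target genes rose, for a median of 0.98 over the 8 genes of the list with Ahr itself. Cyp1a1, its classical target, was at 1.91, 2.32 and 1.81 FPKM with CLK8 and was listed at 0.02, 0 and 0 FPKM without it, so no ratio is given. Its log2 difference of 1.58 (SE 0.07, adjusted p = 1.9e-13) depended on the pseudocount and was 4.31 with a pseudocount of 0.1. Among the groups described here Cyp1a1 reached 1 FPKM only in those with CLK8, which was enough to pass the filter. Its rise therefore supports nothing by itself, although the count and median of the list include it. Cyp1b1, a related cytochrome P450 of higher expression, was at 157, 164 and 157 FPKM against 59.7, 58.8 and 58.3 FPKM, a ratio of 2.7 (log2 difference 1.42, SE 0.05, adjusted p = 1.3e-14). These 6 libraries split into 2 narrow bands. Aldh3a1, an aldehyde dehydrogenase, was at 3.95, 3.82 and 4.48 FPKM against 0.56, 0.39 and 0.45 FPKM (log2 difference 1.79, SE 0.12, adjusted p = 6.2e-11), and Tiparp, which feeds back on the receptor, at 18, 17.7 and 17.3 FPKM against 8.78, 9.4 and 8.76 FPKM (log2 difference 0.90, SE 0.06, adjusted p = 2.8e-11). Nqo1, a quinone reductase under both AhR and NRF2, was at 30.8, 26.3 and 27.4 FPKM against 12.7, 13.7 and 12.4 FPKM (log2 difference 1.06, SE 0.07, adjusted p = 1.9e-10). Ugt1a6a rose less (0.42), and it shares exons with other Ugt1a genes. Ahr itself fell from a mean of 36 to 25.3 FPKM (log2 difference -0.50, SE 0.10, adjusted p = 2.4e-04), and Arnt, its partner, had a log2 difference of 0.13 that was not called. In the NRF2 antioxidant list 8 of 26 members rose and 3 fell, with 7 falling under quantile normalization. Its median of 0.03 was close to the 0.05 over all genes, of which 27.7% rose, so the list did not move as a whole. Hmox1, heme oxygenase, was at 101, 104 and 101 FPKM against 55.6, 67.8 and 64 FPKM (log2 difference 0.70, SE 0.08, adjusted p = 1.3e-07), and Nfe2l2, the gene of NRF2, at 68.4, 65.3 and 67.4 FPKM against 45.1, 44.6 and 45.9 FPKM (log2 difference 0.56, SE 0.04, adjusted p = 3.6e-11). Gstm1, a glutathione transferase, rose as well (log2 difference 0.58, SE 0.08, adjusted p = 3.6e-06), whereas Txn1, Pgd and Me1 fell by 0.14 to 0.24.

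The fibrosis programme was lowered in part. TGFb against vehicle had raised 18 of 22 target genes, all 8 fibrillar collagens tested and 12 of 24 contractile genes, and it shares the TGFb libraries with the comparison made here, so values are set side by side and no overlap is given. In all it called 6199 genes (54.9%), 2311 of them higher (20.5%) and 3888 lower (34.4%), with 3004 higher and 2885 lower under TPM scaling and 3068 and 3105 under quantile normalization. Acta2 (chr19:34241090-34255590), smooth muscle alpha-actin and the usual mark of a myofibroblast, was at 102, 104 and 93.9 FPKM in vehicle cells and 193, 199 and 174 FPKM with TGFb. With CLK8 and TGFb it was at 118, 102 and 103 FPKM, below every TGFb library (log2 difference -0.81, SE 0.14, adjusted p = 1.7e-04). Tagln, an actin-binding protein of the same programme that overlaps Pcsk7, went from 57.5, 50.5 and 49.6 FPKM in vehicle to 123, 117 and 118 FPKM in TGFb and was at 63.4, 59.9 and 56.5 FPKM with both (log2 difference -0.98, SE 0.17, adjusted p = 1.2e-04). Ccn2, the connective tissue growth factor, was at 41.1, 34.9 and 32 FPKM in vehicle, 181, 166 and 176 FPKM in TGFb and 85.7, 65.3 and 56.9 FPKM in CLK8+TGFb (log2 difference -1.34, SE 0.26, adjusted p = 4.7e-04). For these 3 genes the CLK8+TGFb libraries lay near or above the vehicle libraries and well under those with TGFb. CLK8 without TGFb gave means of only 30.9 FPKM for Acta2 and 6.66 FPKM for Ccn2. Both were thus still higher with CLK8 and TGFb than with CLK8 alone, and vehicle is not the matching level without TGFb. Of 24 contractile genes 12 fell and 1 rose, with a median of -0.14. Among them were Tpm1 (tropomyosin, -0.65), Myl9 (a myosin light chain, -0.51), Cnn1 (calponin, -0.80) and Vcl (vinculin, -0.38), while Cald1 (caldesmon) rose by 0.27.

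**Figure D3:**
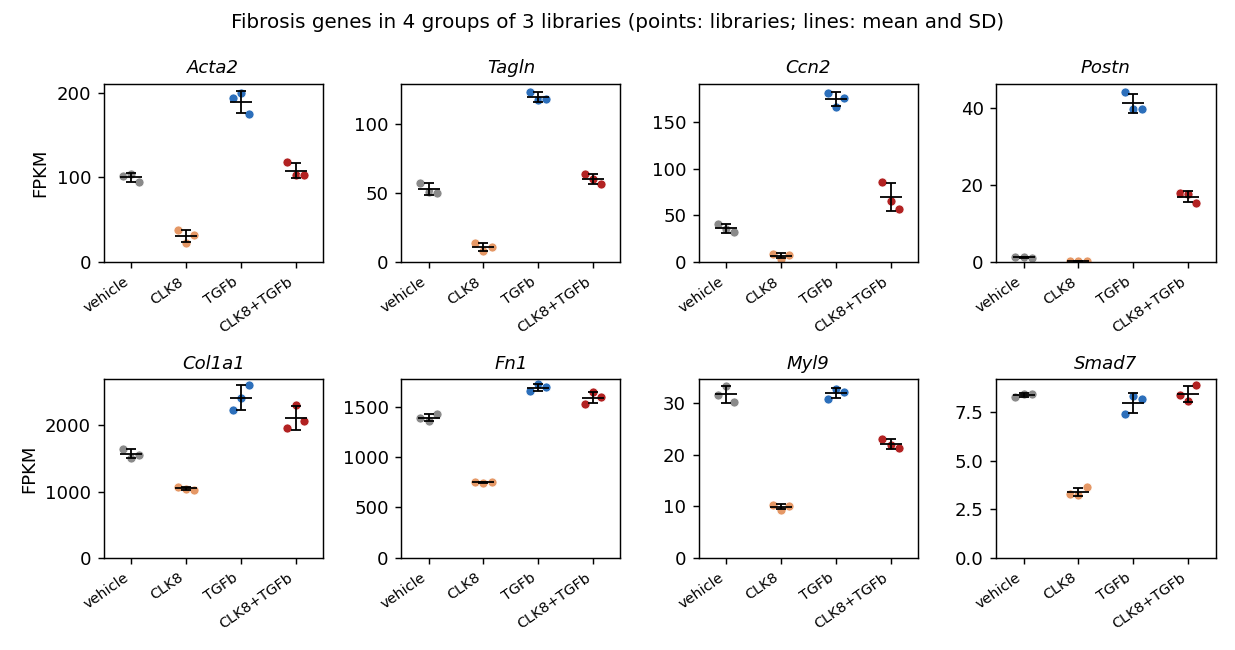
FPKM of 8 fibrosis genes in vehicle, CLK8, TGFb and CLK8+TGFb cells, with 3 libraries as points and the mean and SD as lines; axes start at 0. Acta2, Tagln, Ccn2, Postn and Myl9 are lower in CLK8+TGFb than in TGFb, Col1a1, Fn1 and Smad7 were not called in that comparison, and CLK8 without TGFb has the lowest mean in every panel.

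Ligands and receptors of the pathway moved in both directions, 5 of 14 rising and 4 falling. Tgfb2 fell from 9.89, 9.25 and 9.8 FPKM to 3.59, 3.88 and 3.92 FPKM (log2 difference -1.15, SE 0.07, adjusted p = 9.7e-12), while Tgfb1, the main fibrogenic ligand, was at 27.3, 26.4 and 28.9 FPKM against 26.3, 27.3 and 28.6 FPKM with overlapping groups (adjusted p = 0.92). Tgfbr3, the co-receptor betaglycan, rose (log2 difference 0.47, SE 0.08, adjusted p = 3.1e-05). The latent-TGFb binding proteins, which hold the ligand in the matrix, split, Ltbp2 falling (-0.56) and Ltbp4 rising (0.43). Of 17 SMAD and feedback genes 5 rose and 1 fell, the single fall being Tgif2 (-0.20). Pmepa1, a feedback inhibitor that TGFb induces, was at 105, 104 and 105 FPKM against 69.6, 70.4 and 74.8 FPKM (log2 difference 0.54, SE 0.06, adjusted p = 4.2e-07), higher in every CLK8+TGFb library. The corepressors Ski (log2 difference 0.31, SE 0.04, adjusted p = 3.1e-06) and Tgif1 (0.49) rose too. Smad7, the inhibitory SMAD, was at 8.38, 8.07 and 8.89 FPKM against 7.38, 8.33 and 8.17 FPKM with overlapping groups (adjusted p = 0.4), and Smad2 rose by 0.21. Target genes of TGFb showed 9 falls and 4 rises among 22. Postn, the matricellular protein periostin, fell from 44.1, 39.9 and 39.8 FPKM to 17.8, 17.8 and 15.4 FPKM (log2 difference -1.23, SE 0.10, adjusted p = 1.4e-09). Itga11, an integrin subunit that binds collagen, fell too (-0.56). Besides Pmepa1, the targets that rose were Tgfbi (0.57), Junb (0.32) and Twist1 (0.17). In the BMP branch, Grem1, a BMP antagonist, rose from 48.4, 44.1 and 48.8 FPKM to 126, 104 and 101 FPKM (log2 difference 1.20, SE 0.15, adjusted p = 4.0e-06), as did the antagonist Chrd, whose gene overlaps Thpo (0.57). Bmp2 itself fell (log2 difference -0.82, SE 0.13, adjusted p = 2.8e-05), and so did the BMP target Id3 (log2 difference -0.55, SE 0.08, adjusted p = 1.9e-05).

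Collagen genes fell or stayed, and none of the 21 tested rose. Among 8 fibrillar collagens 4 fell, with a median of -0.21. Col1a1, the chain that forms most of scar collagen, was at 1956, 2306 and 2064 FPKM against 2230.3, 2415 and 2617 FPKM with overlapping groups (log2 difference -0.20, SE 0.08, adjusted p = 0.055), and it was called as a fall without CLK8+TGFb replicate 2 or TGFb replicate 1, or when the 2 groups were fitted alone. Its partner Col1a2 was at 1546, 1801 and 1685 FPKM against 1859, 1969 and 2065 FPKM (log2 difference -0.23, SE 0.06, adjusted p = 0.0033), a call that quantile normalization removed (-0.04, adjusted p = 0.72). Col3a1 was at 255, 308 and 276 FPKM against 263, 309.9 and 301 FPKM, with no difference beyond the spread (adjusted p = 0.75). The clearer falls were in minor chains, Col5a3 from 13, 14.4 and 13.4 FPKM to 6.24, 7.57 and 6.23 FPKM (log2 difference -0.93, SE 0.08, adjusted p = 1.1e-08), Col5a2 (log2 difference -0.45, SE 0.05, adjusted p = 1.6e-07) and Col27a1 (-0.45). Of 13 other collagens 9 fell. Col8a2, a short-chain network collagen, went from 71.9, 72.8 and 78 FPKM to 39.3, 40.2 and 39 FPKM (log2 difference -0.89, SE 0.08, adjusted p = 1.0e-08), and Col6a2, a chain of microfibrillar collagen, from 202, 216 and 219.9 FPKM to 122, 137 and 136 FPKM (log2 difference -0.69, SE 0.11, adjusted p = 2.3e-05). Fn1, fibronectin, was at 1533, 1644 and 1602 FPKM against 1660.1, 1724 and 1695 FPKM and was not called (adjusted p = 0.28), although its groups did not overlap. Spp1, osteopontin, fell from 180.1, 142 and 162 FPKM to 90.3, 77.9 and 79.3 FPKM (log2 difference -0.95, SE 0.09, adjusted p = 1.3e-08). In the list of matrix glycoproteins as a whole 12 of 30 rose and 9 fell.

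Enzymes that build and cut the matrix changed in both directions. Collagen processing showed 9 falls and 2 rises among 24 genes. Lox, the crosslinking lysyl oxidase, was at 384, 438 and 409 FPKM against 525, 527 and 507 FPKM (log2 difference -0.34, SE 0.12, adjusted p = 0.026), a call lost with TPM or quantile scaling and without CLK8+TGFb replicate 1 or 3 or TGFb replicate 1 or 2. Pcolce, which speeds procollagen trimming, fell (log2 difference -0.51, SE 0.06, adjusted p = 3.0e-07), as did Fkbp10, a collagen chaperone (-0.29). The 2 rises were P4ha3, a prolyl hydroxylase subunit, from 33.6, 34.1 and 33 FPKM to 55.8, 56.2 and 58.6 FPKM (log2 difference 0.74, SE 0.08, adjusted p = 1.4e-07), and the procollagen peptidase Adamts2 (0.49). Among proteases and inhibitors 10 of 25 rose and 5 fell. The collagenase Mmp13 was at 2.95, 1.82 and 2.56 FPKM against 0.35, 0.43 and 0.31 FPKM (log2 difference 1.32, SE 0.10, adjusted p = 1.0e-09), and the stromelysin Mmp3 at 4.37, 2.87 and 2.97 FPKM against 0.53, 0.36 and 0.27 FPKM (log2 difference 1.65, SE 0.14, adjusted p = 4.9e-09). Both were low, so their differences grew to 2.44 and 2.86 with a pseudocount of 0.1. Mmp14, the membrane-bound collagenase, was abundant and rose from 201, 196 and 209.7 FPKM to 299, 285 and 294 FPKM (log2 difference 0.53, SE 0.04, adjusted p = 7.2e-10). The gelatinase Mmp9 fell (log2 difference -0.93, SE 0.08, adjusted p = 5.4e-09). Timp1, the collagenase inhibitor that overlaps Syn1, fell from 312, 310.2 and 285 FPKM to 223, 208 and 219.6 FPKM (log2 difference -0.48, SE 0.07, adjusted p = 6.9e-06). Of 11 integrins 6 fell and 2 rose, Itga3 (-0.75) and Itga6 (0.62) being the furthest apart.

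Stellate cell identity genes leaned upward, with 8 of 14 rising and 1 falling, or 5 rising and 2 falling under quantile normalization. Pdgfrb, the PDGF receptor of stellate cells, was at 39.9, 35.5 and 36.8 FPKM against 26.4, 24 and 25.4 FPKM (log2 difference 0.55, SE 0.06, adjusted p = 4.2e-07), and Gata4, a transcription factor of quiescent stellate cells, at 13.7, 13.9 and 14.6 FPKM against 9.27, 10.4 and 10.7 FPKM (log2 difference 0.44, SE 0.05, adjusted p = 5.6e-07). Both genes had separate groups. All 5 expressed stellate markers rose, and Ets1 was the gene of the identity list that fell (-0.39). Mesothelial markers moved the other way: their 5 genes summed to 59.6 to 73.5 FPKM in CLK8+TGFb libraries and 151.8 to 160.8 FPKM in TGFb libraries. Upk3b, a uroplakin of mesothelium, was at 19.9, 26.3 and 24.6 FPKM against 85.1, 92.2 and 85.9 FPKM (log2 difference -1.86, SE 0.14, adjusted p = 5.0e-09), and Lrrn4 at 10.6, 13.4 and 11.6 FPKM against 35.2, 36 and 37.8 FPKM (log2 difference -1.54, SE 0.12, adjusted p = 2.3e-09). Wt1 fell and Krt8 was not called, whereas Msln, mesothelin, rose (log2 difference 0.74, adjusted p = 2.0e-05), and all 5 genes were measured above 0. Cholangiocyte markers Krt7 and Krt19 were at most 6.11 FPKM and fell, while Sox9 rose. What share of the other changes goes with these marker levels was not tested.

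Inflammatory genes fell. Of 26 cytokine, chemokine and NF-kB genes 14 fell and 1, Ptgs2 (log2 difference 0.37), rose, with a median of -0.28. Ccl2, the monocyte chemoattractant, was at 57.9, 40.3 and 45.5 FPKM in CLK8+TGFb and 130.1, 139 and 133 FPKM in TGFb (log2 difference -1.48, SE 0.16, adjusted p = 3.8e-07). Csf1, the macrophage growth factor, was at 75.5, 66 and 60.9 FPKM against 102, 102 and 107 FPKM (log2 difference -0.62, SE 0.06, adjusted p = 1.9e-08). Relb, a subunit of NF-kB, was at 15.6, 14.5 and 13.9 FPKM against 20.2, 21.7 and 23 FPKM (log2 difference -0.53, SE 0.05, adjusted p = 5.4e-08). In all 3 every library with CLK8 was the lower. Cxcl10 (-1.21), Icam1 (-0.71) and the NF-kB inhibitor Nfkbia (-0.48) were also among the falls, and Il6 was at a mean of 5.44 against 4.86 FPKM and not called. Interferon-response genes went up instead, 18 of 28 rising and none falling, with a median of 0.36, and 12 rising under quantile normalization. TGFb against vehicle had lowered 24 of the 28. Among the rises were genes of antigen processing, such as Psmb9, an immunoproteasome subunit next to and overlapping Tap1, from 9.74, 11.1 and 9.52 FPKM to 18.6, 18.5 and 22.1 FPKM (log2 difference 0.90, SE 0.14, adjusted p = 2.3e-05). The class I molecule H2-D1 rose from 222, 248 and 240.1 FPKM to 406, 379 and 391 FPKM (log2 difference 0.73, SE 0.09, adjusted p = 1.5e-06), H2-K1 by 0.42 on the log2 scale and the peptide transporter Tap2 by 0.43; class I genes are alike in sequence, so reads may have been split among them. Interferon-induced Ifit1 (0.54) and Irf7 (0.46) rose as well.

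Cholesterol synthesis was the list with the lowest median, -0.29 over 25 tested genes, of which 19 fell and 2 rose. The pathway runs from acetyl-CoA through mevalonate and squalene to sterols, and falls were found along its whole length. Lss, which makes the first sterol of the pathway, was at 21.5, 20.9 and 22 FPKM against 36.9, 36.9 and 36.5 FPKM (log2 difference -0.75, SE 0.06, adjusted p = 1.3e-09). Mvd, of the mevalonate part, was at 20.9, 20.2 and 21.5 FPKM against 31.8, 31.5 and 34.8 FPKM (log2 difference -0.62, SE 0.06, adjusted p = 9.4e-09), and Fdps, which makes farnesyl diphosphate, at 138, 129 and 144 FPKM against 194, 202 and 212 FPKM (log2 difference -0.56, SE 0.07, adjusted p = 5.4e-07). Cyp51, the sterol demethylase, was at 63, 59.4 and 63.9 FPKM against 93, 88 and 88.3 FPKM (log2 difference -0.53, SE 0.07, adjusted p = 2.5e-06). No groups overlapped in these 4 genes. Hmgcs1, the synthase at the entry of the pathway, also fell, with a log2 difference of -0.67, as did Sqle, the squalene epoxidase (-0.35). The exceptions were Tm7sf2 (0.55) and Ebp (0.47), which rose, and Insig1, Srebf2, Hsd17b7 and Stard4, which were not called. Without TGFb the counts were different: 7 genes were higher with CLK8 than with vehicle, 2 were lower and the median was 0.08. Of all genes tested 30.3% were higher and 13.6% lower there, with a median of 0.06, so the list did not stand out without TGFb. The difference between the 2 settings was itself called, in the negative direction, for 19 of the 25 genes (14 with TPM scaling, 19 with quantile normalization). For Fdps the log2 difference was -0.56 with TGFb and -0.03 without (interaction -0.53, adjusted p = 7.0e-04), and for Mvd -0.62 and -0.11 (interaction -0.52, adjusted p = 1.5e-04). TGFb alone had lowered 14 of the 25 genes and raised 2, where 34.4% of all genes tested were lower and 20.5% higher.

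**Figure D4:**
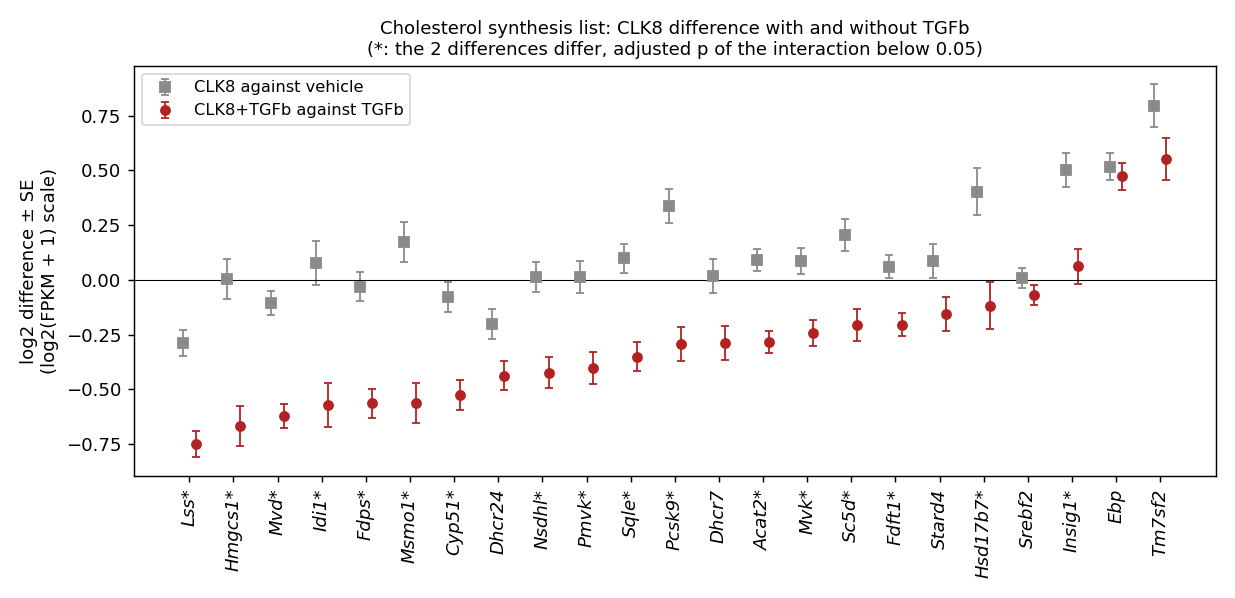
Log2 difference made by CLK8 for 23 cholesterol synthesis genes, with TGFb (circles) and without it (squares), with standard errors. An asterisk marks genes whose 2 differences differ by the interaction test; 17 genes carry one, and Lss lies lowest with TGFb at -0.75.

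Fatty acid synthesis genes moved in both directions with TGFb. Scd1, the stearoyl-CoA desaturase, rose from 78.2, 76.5 and 76.6 FPKM to 113, 109 and 118 FPKM (log2 difference 0.55, SE 0.05, adjusted p = 3.8e-08), as did Elovl5, an elongase of polyunsaturated fatty acids (log2 difference 0.34, SE 0.05, adjusted p = 2.6e-06) and Srebf1, the regulator of the pathway, which overlaps Rai1 (0.38). Elovl6, an elongase of saturated fatty acids, fell from 11.2, 10.8 and 11.1 FPKM to 7.88, 7.62 and 7.71 FPKM (log2 difference -0.46, SE 0.08, adjusted p = 4.4e-05). Over the 15 genes tested 7 rose and 4 fell, with 1 falling under TPM scaling. Without TGFb 10 rose and none fell, and the interaction was called, in the negative direction, for 7 of the 15 (1 with TPM scaling, 4 with quantile normalization). In fatty acid oxidation 7 of 16 rose and 3 fell, or 4 and 3 with quantile normalization. Acot1, an acyl-CoA thioesterase, went from 27.2, 28.7 and 29.6 FPKM to 43.8, 52.6 and 48 FPKM (log2 difference 0.73, SE 0.07, adjusted p = 1.9e-08), with Acot2, its close copy, at 0.71, and Cpt1a, an enzyme of fatty acid entry into mitochondria, rose by 0.33. Ucp2, a mitochondrial carrier that overlaps Dnajb13, fell from 7.1, 9.06 and 9.2 FPKM to 3.42, 3.82 and 4.55 FPKM (log2 difference -0.94, SE 0.11, adjusted p = 4.8e-07).

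Stress, growth and housekeeping lists showed smaller or mixed changes. Within the integrated stress response 5 of 28 genes rose and 4 fell. Ddit3, the gene of CHOP, was at 77.8, 69.9 and 75.5 FPKM against 36.8, 36.6 and 38.9 FPKM (log2 difference 0.97, SE 0.10, adjusted p = 1.4e-07) and overlaps Mars, and Slc3a2, a subunit of amino acid transporters, was at 365, 334 and 351 FPKM against 168, 177 and 179 FPKM (ratio of means 2, adjusted p = 7.9e-10). Ppp1r15a, which reverses the response, also rose (0.63), while Atf4 itself stood at a mean of 429 against 437 FPKM and was not called. The serine and asparagine enzymes Psat1 (-0.48) and Asns (-0.34) fell. Of 20 tRNA synthetases 9 fell and none rose, Iars (-0.34) and Dars (-0.22) among them. Of 29 ribosomal protein genes 13 fell and none rose, but with quantile normalization 7 fell and 2 rose, so the direction of the small changes depended on the scaling. Rpsa stood apart, at 423, 433 and 414 FPKM in CLK8+TGFb and 934, 992 and 958 FPKM in TGFb (log2 difference -1.18, SE 0.06, adjusted p = 8.1e-13), against -0.34 for Rps2, the next largest fall of the list. Rpsa has many near-identical pseudogene copies, so how its reads were assigned is uncertain.

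Immediate early genes rose, 11 of 21 against 1 fall, with a median of 0.32. Fos was at 8.06, 9.37 and 10.5 FPKM against 3.9, 3.75 and 3.69 FPKM (log2 difference 1.10, SE 0.09, adjusted p = 8.3e-10), and Ier3 at 56.1, 56.6 and 63.6 FPKM against 35.3, 39.3 and 31.9 FPKM (log2 difference 0.71, SE 0.09, adjusted p = 1.3e-06). Egr2 and Egr3 rose by 0.59 and 0.49, and Dusp5 was the member that fell (-0.30). Of 37 cell cycle genes 11 rose and 11 fell, with a median of -0.02, where 27.7% of all genes tested rose and 13.3% fell. The 11 that rose were Ccne1, Cdc6, Cdc45, Pcna, E2f1, E2f2 and 5 subunits of the MCM helicase, all genes of S phase entry or DNA replication. That grouping was made after the calls were seen, and list members of the same kind that were not called are not counted. Mcm2 (log2 difference 0.34, SE 0.04, adjusted p = 2.9e-07) and the replication regulator E2f1 (log2 difference 0.45, SE 0.04, adjusted p = 2.0e-08) had the smallest adjusted p among the 11. The falls included the mitotic genes Ccnb1, from 87.7, 84 and 86.3 FPKM to 66.2, 64.4 and 63.9 FPKM (log2 difference -0.40, SE 0.03, adjusted p = 5.0e-09), and Bub1b (log2 difference -0.32, SE 0.04, adjusted p = 5.1e-07), and also Ccnd1 (-0.66), Ccnd2 (-0.45) and Myc (-0.44), which act at the start of the cycle. Among p53 targets and CDK inhibitors 9 of 24 rose and 7 fell. Gadd45a, a stress sensor, went from 30.4, 29.5 and 30.1 FPKM to 52.4, 51 and 52.8 FPKM (log2 difference 0.78, SE 0.08, adjusted p = 1.5e-07), Trp53inp1 rose by 0.82 and the inhibitor Cdkn1b (p27) by 0.48, whereas Gadd45b fell (-0.46). Of growth factors and receptors 6 of 27 rose and 8 fell. Vegfa, the endothelial growth factor, rose from 83, 85.4 and 78.4 FPKM to 133, 143 and 126 FPKM (log2 difference 0.70, SE 0.09, adjusted p = 8.9e-07) and Pdgfb, a mitogen of stellate cells, fell from 24.4, 25.1 and 24.3 FPKM to 13.7, 13.3 and 13.8 FPKM (log2 difference -0.81, SE 0.07, adjusted p = 8.1e-09). Hif1a rose (log2 difference 0.61, SE 0.08, adjusted p = 1.3e-06), but of the 19 hypoxia genes only Hif1a and Vegfa did and 3 fell. Glycolysis had 4 rises (2 under quantile normalization) and 5 falls among 21 genes. Ldha, lactate dehydrogenase, was the largest fall there, from 1136, 1317 and 1159.7 FPKM to 629.7, 791 and 781 FPKM (log2 difference -0.72, SE 0.12, adjusted p = 6.0e-05). Respiratory chain genes showed 5 rises and 8 falls in 35 (9 and 8 with quantile normalization, 8 and 7 with TPM scaling), heat shock genes 3 and 4 in 16, chaperones of the endoplasmic reticulum 5 and 7 in 25, and YAP targets 4 and 5 in 18.

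The same compound without TGFb gave a comparison that shares no library with the one above. CLK8 against vehicle called 4959 genes (43.9%), 3425 higher (30.3%) and 1534 lower (13.6%), or 2385 higher and 2197 lower with quantile normalization. Of the genes called with TGFb, 3033 were also called without it in the same direction, which is 65.4% of the first list and 61.2% of the second, and 92 were called in opposite directions. Across all 11297 genes the 2 sets of log2 differences had a Pearson r of 0.738 and a Spearman rho of 0.684. Among the 145 genes that CLK8 moved at least 2-fold on the log2(FPKM + 1) scale without TGFb the r was 0.906. The slope of the difference with TGFb on that without it was 0.64 for these genes. They were picked for large differences without TGFb, which can by itself raise r and shift the slope, so nothing is concluded from either. All these values are descriptions across genes, which are not independent replicates. For 4 of the genes that moved most, no interaction was called. Their log2 differences with and without TGFb were 2.28 and 2.45 for Gpnmb, 1.59 and 1.69 for Klf15, 1.56 and 1.25 for Uap1l1 (interaction 0.32, adjusted p = 0.055) and -2.09 and -2.33 for Saa3, and a missing call does not show that they were alike. Gpnmb and Klf15 had means of 0.76 and 0.85 FPKM in TGFb cells, against 5.25 and 2.62 FPKM in vehicle cells. For these 2 genes the scale thus understates the difference with TGFb more than that without it. The levels themselves were not alike: Vcan was at 2.09, 1.92 and 1.71 FPKM in vehicle and 19.2, 18.4 and 18 FPKM in CLK8 cells, all below the CLK8+TGFb libraries.

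**Figure D5:**
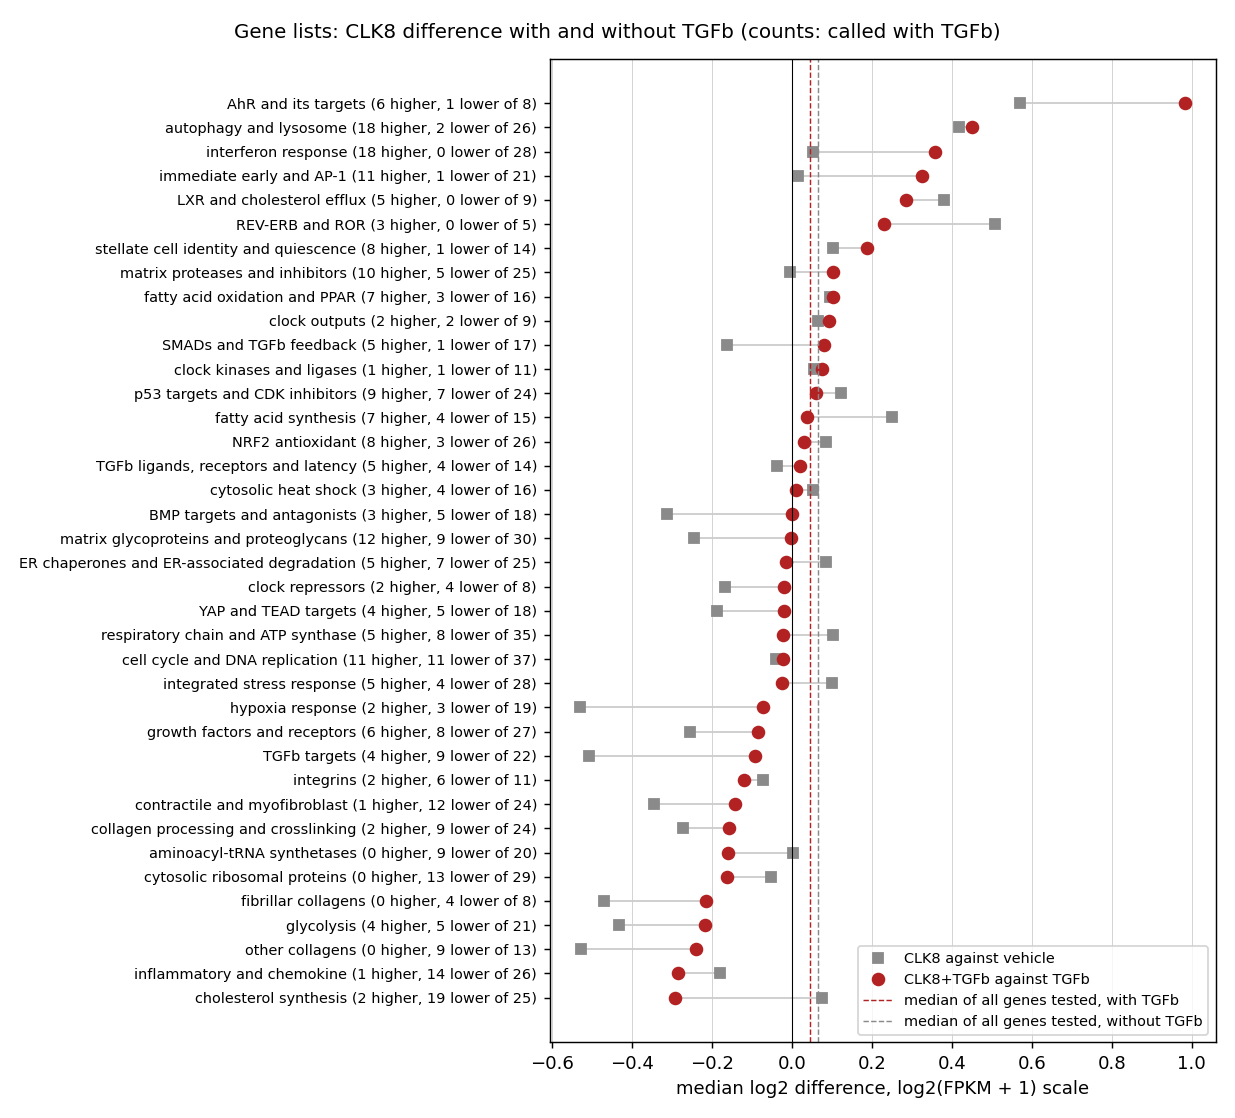
Median log2 difference made by CLK8 with TGFb (circles) and without it (squares) for each gene list with at least 5 tested members, ordered by the first, with the counts called with TGFb in the labels. Dashed lines give the medians over all genes tested (0.05 and 0.06); the AhR list is highest at 0.98 and cholesterol synthesis lowest at -0.29 with TGFb.

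Many fibrosis genes responded to CLK8 by a different amount with and without TGFb. The test of the difference, CLK8+TGFb minus TGFb less CLK8 minus vehicle, called 900 genes (7.97%), 517 of them positive (4.58%) and 383 negative (3.39%), or 547 and 207 with TPM scaling. The negative count was 251 without TGFb replicate 1 and 253 without vehicle replicate 3. The positive side held 11 of the 22 TGFb targets, 9 of 24 contractile genes, 8 of 21 immediate early genes and 6 of 17 SMAD and feedback genes. CLK8 alone lowered 17 of the 24 contractile genes. Acta2 fell from 102, 104 and 93.9 FPKM to 37.5, 22.9 and 32.4 FPKM when CLK8 was given without TGFb (log2 difference -1.69), a larger fall than with it (interaction 0.88, adjusted p = 0.0095). Igfbp7, a secreted binding protein whose gene overlaps Polr2b, fell from 54.7, 52.5 and 51.4 FPKM to 13.1, 9.33 and 11.4 FPKM without TGFb and from 132, 136 and 146 FPKM to 89.1, 78.9 and 70.2 FPKM with it (interaction 1.35, adjusted p = 2.2e-05). Smad7 and Smad6, both inhibitory SMADs, fell without TGFb, with log2 differences of -1.10 and -1.15, and were not called with it (adjusted p of the interaction 9.6e-08 and 1.6e-07). Fn1 went from 1386, 1359 and 1430.4 FPKM to 758, 747 and 753 FPKM without TGFb (log2 difference -0.89, SE 0.06, adjusted p = 1.4e-10), against no called change with it (interaction 0.80, adjusted p = 2.8e-06). Fos rose only in the setting with TGFb, at 0.02 without it (interaction 1.08, adjusted p = 2.5e-06). Of the 900 genes, 241 were called in both settings in 1 direction, and the difference was smaller with TGFb for 180 of them and larger for 61.

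Directions reversed for some genes. Dlx2, a homeobox transcription factor, was at 17.1, 18.1 and 18.5 FPKM in CLK8+TGFb against 10.9, 10.9 and 11.5 FPKM in TGFb, and at 5.08, 4.81 and 5.03 FPKM in CLK8 against 9, 8.37 and 9.82 FPKM in vehicle (interaction 1.39, adjusted p = 5.1e-09). It was higher with CLK8 in one setting and lower in the other, with no overlap in either. Il33, an alarmin cytokine, did the converse, at 7.75, 10.3 and 10.2 FPKM against 16.3, 17.1 and 15.3 FPKM with TGFb and 20.9, 22.1 and 19.8 FPKM against 13, 14.2 and 13.9 FPKM without it (interaction -1.31, adjusted p = 2.5e-06). Pmepa1 rose with TGFb and fell without it (-0.26, adjusted p of the interaction 2.5e-06), as did Ski (-0.24, 2.1e-06), and Elovl6 fell with TGFb and rose without it (0.36, 2.2e-05). Ctsw, a cathepsin that TGFb induced from 0.12, 0.03 and 0.12 FPKM to 37, 37 and 37.9 FPKM, was at 17.5, 18.8 and 15.9 FPKM in CLK8+TGFb and 0.30, 0.12 and 0.09 FPKM in CLK8 alone. It overlaps Fibp, and without TGFb it was too low to show a fall.

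SR9011, which acts on the REV-ERB arm of the clock, was given with TGFb in the same schedule, so the 2 compounds can be set against each other directly, although neither dose is given and they cannot be called matched. The direct test called 6053 of 11297 genes (53.6%). Vcan was at 14.1, 13.1 and 13.4 FPKM in SR9011+TGFb, below every CLK8+TGFb library (log2 difference 2.15, SE 0.07, adjusted p = 2.4e-16), and Cyp1b1 at 48.2, 47 and 46.2 FPKM, again lower than with CLK8 (log2 difference 1.74, SE 0.05, adjusted p = 2.4e-16). Gpnmb was higher with SR9011, at 19.6, 18 and 18.5 FPKM (log2 difference -1.20, SE 0.11, adjusted p = 4.0e-09), and so was Mcoln1, at 62.6, 64.5 and 61.9 FPKM (log2 difference -0.53, SE 0.05, adjusted p = 2.8e-09). Acta2 stood at 209, 164 and 194 FPKM with SR9011, higher than with CLK8 (log2 difference -0.80, SE 0.14, adjusted p = 1.0e-04), while Fn1 was lower there, at 1002, 1029 and 1001 FPKM (log2 difference 0.66, SE 0.06, adjusted p = 1.1e-08). Saa3 was at 22.1, 8.73 and 19.6 FPKM and did not differ beyond the spread (log2 difference -0.05, SE 0.25, adjusted p = 0.89). Rpsa was at 966, 1108 and 965 FPKM with SR9011 and thus low only in the CLK8 libraries of these 3 groups (log2 difference -1.25, SE 0.06, adjusted p = 9.6e-14).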

How the data were processed

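RNA-seq FPKM values per gene were deposited by the authors for 24 libraries in 8 groups of 3. Per the submitters' processing notes, HISAT2 2.0.4, Bowtie2 2.2.5, RSEM, DESeq2 and mm10 were used, with roles, annotation and strand setting not given in the sources used here. Per the labels' protocols, 1 of 2 RNA kits was used depending on the sample, with no record here of which library had which.

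Of 16620 lines, 16 with a repeated identifier were left out, and the file holds no mitochondrial gene. Genes with at least 1 FPKM in at least 3 of the 24 libraries (11297) were tested on log2(FPKM + 1), FPKM taken as deposited with no further scaling. A single limma 3.58.1 model (R 4.3.3) with 8 group means, trend and robust moderation gave every difference and the interaction, with Benjamini-Hochberg adjusted p over all 11297 genes and 16 residual degrees of freedom. The code was tested on simulated data. Depth per library is unknown, so no counting error is given.

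Genes named were the 12 largest called rises and falls with separate groups, up to 4 called members per list by adjusted p, the clock genes, 12 fibrosis genes listed by name and the 6 largest interactions in each direction; further list members were named after their values were seen. Some genes that these rules name are not reported here, although list counts include them. The comparison, members and lists were chosen with earlier results of these data known. Alternatives were other pseudocounts (0.1, 0.5), no filter or a filter at 5 FPKM, TPM or quantile scaling, limma without trend, a replicate block, the compared groups alone and each library left out. Gene positions come from GENCODE M21 (mm10) and promoters from RefSeq (GRCm38.p6).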

Additional observations from a re-analysis of the deposited data

Results flagged for a closer look

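Of the 194 genes followed individually 190 are reported here, and for 63 of these the log2 difference made by CLK8 with TGFb differed from that without it by the interaction term of the limma model over all genes, 39 in the positive direction and 24 in the negative. A positive value means that the difference was higher with TGFb. The genes were picked in part for large interactions, so their share is no estimate for other genes; of the 11103 genes tested outside the 194, 7.53% were called.

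A first set of positive values belonged to genes that CLK8 lowered without TGFb, and that it lowered less, raised or did not visibly change with TGFb. Angptl7, an angiopoietin-like secreted protein that overlaps Mtor, had the largest interaction (2.32): it was at 21.8, 23.2 and 25 FPKM in vehicle and 0.83, 1.58 and 1.35 FPKM in CLK8, and at 19.1, 21 and 21.3 FPKM in TGFb and 7.82, 9.12 and 9.64 FPKM in CLK8+TGFb. In the contractile group the interaction was 1.20 for Tagln, 1.08 for Myl9, 0.88 for Acta2, 0.63 for Cnn1 and 0.38 for Vcl. In matrix genes it was 0.80 for Fn1, 0.49 for Col8a2, 0.39 for Col1a1 and 0.24 for Col5a2. Genes of the TGFb pathway and its targets had 1.23 (Smad6), 1.18 (Smad7), 0.80 (Pmepa1), 0.55 (Ski) and 0.54 (Ltbp2). Dlx2 (1.39), Igfbp7 (1.35), Gadd45b (0.74), Aldoc (0.70), Pfkfb3 (0.40) and Csf1 (0.39) were other genes lower with CLK8 in the setting without TGFb. Fxyd3, which overlaps Lgi4, also had a positive value (1.21), but it was already near 0 with TGFb (0.42, 0 and 0.41 FPKM, against 1.69, 4.04 and 3.91 FPKM in vehicle) and had no room to fall there, so its interaction says nothing about CLK8.

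Other positive values belonged to genes that CLK8 raised more with TGFb. The immediate early genes were Fos (1.08), Ier3 (0.44), Egr3 (0.42) and Egr2 (0.39), and the xenobiotic and stress genes Tiparp (0.64), Hmox1 (0.52), Cyp1a1 (0.50) and Xdh (0.41). Among the groups compared Cyp1a1 reached 1 FPKM only in those with CLK8 and passed the filter there, so its interaction supports nothing. C4b (0.76), Mmp3 (0.63), Bhlhe41 (0.46), Gata4 (0.45), P4ha3 (0.42), Ltbp4 (0.44), Tsc22d3 (0.33), Cpt1a (0.29) and E2f1 (0.29) completed the set.

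Negative values came from genes that CLK8 raised more without TGFb or lowered more with it. Slpi, a protease inhibitor, had -1.18, Prg4 had -1.01 and Vcan -0.88, all 3 with rises in both settings. Peg10 (-1.28), Aox3 (-1.22) and Kng1 (-1.16) were raised without TGFb and not called with it. Of the 4 groups, Aox3 and Kng1 reached 1 FPKM only with CLK8 alone (2.02, 2.08 and 1.84 FPKM and 1.38, 1.81 and 1.83 FPKM) and passed the filter on low values there, so their interaction follows from that choice and supports nothing. Lipid genes with a negative value were Elovl6 (-0.82), Fdps (-0.53), Mvd (-0.52), Lss (-0.46), Cyp51 (-0.45), Scd1 (-0.25) and Npc1 (-0.24). Il33 (-1.31) was raised without TGFb and lowered with it. S100a4 (-0.54), Htr7 (-0.44), Col5a3 (-0.46), Cox7b (-0.38), Rps4x (-0.27), Tef (-0.26) and Hars (-0.19), which overlaps Hars2, were lowered more, or only called, with TGFb. Ctsw (-1.16), Nt5e (-0.49) and Col6a3 (-0.38) had means of at most 0.37 FPKM in vehicle and in CLK8 cells and could not fall there, so their negative values describe levels with TGFb only.

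Some of these calls depended on the processing. With TPM scaling 8 of the 63 were lost (Prg4, Htr7, Tef, Scd1, Npc1, Hars, Col1a1 and Egr2), with quantile normalization 3 (Scd1, Egr2 and Bhlhe41), and with a pseudocount of 0.1 there were 10 (Prg4, Nt5e, Htr7, Col6a3, Scd1, Hars, Egr2, Egr3, Bhlhe41 and Fxyd3), of which Htr7 also changed sign. All 63 were kept with the replicate block.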

How the results depend on the processing

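Read totals are unknown. With a pseudocount of 0.1, 102 genes rose and 94 fell by at least 2-fold in CLK8+TGFb against TGFb, and with TPM scaling 66 rose, against 43 and 36 as reported. Called falls numbered 2277 with quantile normalization against 1508. For the interaction, 207 genes were negative with TPM scaling against 383. The cause of these shifts was not tested. Leaving out 1 library at a time gave 251 to 392 negative interactions and 615 to 868 in all, 3957 to 4068 calls of CLK8+TGFb against TGFb, 4217 to 4558 of CLK8 against vehicle, 5418 to 5856 of TGFb against vehicle and 5338 to 5567 of CLK8+TGFb against SR9011+TGFb. With the replicate number as a block (replicate block) 4765 genes were called, 3179 higher and 1586 lower, and the 194 genes followed individually all kept their direction and call. Same-numbered libraries of the 2 groups deviated together only weakly (correlations 0.162, 0.134 and 0.032), so the samples share a number and no more is known. In CLK8+TGFb against TGFb, no gene of the 194 that was called as reported or under an alternative changed direction between the 2. Changes of sign in genes called in neither were not counted. With the filter at 5 FPKM only 174 of the 194 genes could be tested. The calls of 11 were lost under at least 1 alternative, including those of Arntl, Col1a2, Cry1, Cry2, Csnk1d, Csnk2a1, Hsp90ab1, Hspd1, Lox and Nfil3. With 3 libraries a group the median SE of 0.064 on the log2 scale limits what can be called.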
